A study of Mus musculus with 44 samples.

Results

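The 9 transcription factor genes Pdx1, Onecut2, Isx, Nr5a2, Creb3l3, Sox9, Prox1, Osr1 and Tbx3, which are used along the mouse gut, were followed across lineage-traced endoderm. They were chosen by name, and all 9 were found among the 32287 gene identifiers of the RNA-seq tables, each under a single identifier. The values are TPM (transcript abundance scaled to transcript length and to the total of the library) in 44 low-input libraries of 12 groups.

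Regional transcription factors divide the endoderm tube into the organs that bud from it. Genes such as Pdx1 and Onecut2 are used around the duodenum and pancreas, Isx and Nr5a2 in the intestinal epithelium, and the 5′ Hox genes in the hindgut. The visceral endoderm, an extraembryonic epithelium that nourishes the early embryo, shares part of this repertoire with liver and intestine, and some of its cells enter the gut tube.

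In these embryos, GFP+ mouse embryonic stem cells (G4) were aggregated with mCherry+ morulae (CD1/G4), so that embryonic cells carry GFP and extraembryonic cells carry mCherry. The study's methods call the stem cell background F1G4 and bring C57BL/6J animals into the mCherry+ colony. At E6.5, epiblast (Epi, GFP+), distal extraembryonic endoderm (exEndo1, mCherry+) and proximal extraembryonic endoderm (exEndo2, mCherry+) came from single embryos (n = 4 libraries each). At E9.5, EPCAM+ cells were sorted from pools of 4 embryos (n = 4 libraries each). The extraembryonic cells of the midgut (exMidgut) and hindgut (exHindgut) were mCherry+, and their embryonic counterparts (emMidgut, emHindgut) were GFP+ cells with low mCherry signal. Yolk sac endoderm (YsEndo, mCherry+) of the same stage was sorted from pools of 4 yolk sacs (n = 4). At E13.5, EPCAM+ cells of the small intestine (emSI, exSI) and colon (emColon, exColon) came from single embryos (n = 3 libraries each). The emSI and emColon cells were sorted as GFP+ and the exSI and exColon cells as mCherry+. The E6.5 and E9.5 groups, emSI and emColon are wild type, whereas exSI and exColon are labelled Trp53 KO (for its knockouts the study's methods describe Cas9 delivered to zygotes), so that origin and Trp53 genotype cannot be told apart at E13.5. Per the study's methods, the emSI and emColon cells came from embryos whose extraembryonic lineage carried this knockout. All GFP+ cells derive from 1 stem cell line.

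The aligned bases implied by the coverage values were 3.53 to 12.04 Gb per library (median 6.80), with 10382 to 13596 genes above 1 TPM. EGFP reached at most 15.9 TPM in mCherry+ groups and mCherry at most 6.61 TPM in GFP+ groups. Trp53 transcripts were 33.4, 167 and 117 TPM in the 3 exSI libraries and 42.5, 124 and 122 TPM in the 3 exColon libraries, against 151 to 245 TPM in emSI and emColon, and the exSI library with 167 TPM lies inside the emSI range. The gut endoderm markers Epcam and Cdx2 were at or above 331 and 96.7 TPM in every E9.5 and E13.5 gut library, while Sox17, an early endoderm marker, was listed at 0 in all emColon, exSI and exColon libraries. Some libraries stand apart: emMidgut replicates 1 and 3 hold 301 and 291 TPM of the germ cell marker list (71.5 and 86.4 TPM in the other emMidgut libraries), and emSI replicates 1 and 2 hold 536 and 159 TPM of the mesenchyme list (1.75 TPM in emSI replicate 3). For the 9 factors, values without them are given where a call, a direction or the size changes, whereas the gene lists were fitted with all libraries.

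Promoter sequences bear on the group because Isx and Nr5a2 share an E9.5 pattern described below. The RefSeq table (GRCm38.p6, the mm10 assembly) had entries for 5 of the 9 genes (Pdx1, Nr5a2, Creb3l3, Isx and Prox1; 8 start sites). In the 250 bases before each start, letters of gut factor motifs were searched on both strands. They were TTTATG for the Cdx factors, AGATAA for the Gata factors, TGTTTAC for the Fox factors, CAAAGTCCA for Hnf4, TCAAGGTCA for Nr5a2 itself and TAATTA for homeobox factors. A match was found in 2 of the 8 windows, both with the Gata letters, which 9.99% of all 32851 promoter windows hold. All these letters were searched, and the share of windows that hold any of them was not computed. The count of 2 can therefore not be read against the 9.99%. Of the Nr5a2 windows, that at chr1:136960449-136960698 (minus strand) holds them 2 times and that at chr1:136953631-136953880 not at all. Of the Creb3l3 windows, that at chr10:81092592-81092841 (minus strand), which lies inside the gene, holds them 1 time. The Creb3l3 window at the 5′ end of the gene (chr10:81098873-81099122) holds none, as does the Isx window (chr8:74872924-74873173, plus strand). The 2 windows with a match and the Isx window are shown 5′ to 3′ along the gene, with matches in capitals (on the other strand the Gata letters read TTATCT).
Nr5a2: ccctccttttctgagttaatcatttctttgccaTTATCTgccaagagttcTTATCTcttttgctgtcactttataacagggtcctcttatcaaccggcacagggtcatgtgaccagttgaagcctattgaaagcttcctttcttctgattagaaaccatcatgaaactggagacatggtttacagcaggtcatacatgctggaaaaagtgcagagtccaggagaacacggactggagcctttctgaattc
Creb3l3: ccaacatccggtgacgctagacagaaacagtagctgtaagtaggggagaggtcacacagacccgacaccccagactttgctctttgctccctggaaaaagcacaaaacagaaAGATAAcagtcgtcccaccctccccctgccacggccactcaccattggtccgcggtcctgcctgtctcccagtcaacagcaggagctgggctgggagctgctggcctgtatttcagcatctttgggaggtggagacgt
Isx: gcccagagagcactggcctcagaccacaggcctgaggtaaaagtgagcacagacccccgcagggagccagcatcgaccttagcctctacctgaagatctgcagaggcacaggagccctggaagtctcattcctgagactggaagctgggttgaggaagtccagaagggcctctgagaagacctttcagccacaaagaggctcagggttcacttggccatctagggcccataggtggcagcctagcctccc
The shares of all windows that hold the other letters were 10.8% for Cdx, 3.17% for Fox, 0.384% for Hnf4, 0.387% for Nr5a2 and 4.84% for homeobox. A match of letters is a description of the window and not a binding site.

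Pdx1 (chr5:147269959-147275848, plus strand), a homeobox factor required for the pancreas and the rostral duodenum, had its highest group means in the small intestine at E13.5. The emSI libraries held 18.3, 6.86 and 20.2 TPM and the exSI libraries 26.6, 3.68 and 4.81 TPM. Pdx1 was listed at 0 in all emHindgut and all emColon libraries, and at 0, 10.9 and 0 TPM in exColon. In the midgut at E9.5, 1 library of each origin stood out, since emMidgut held 0, 5.96, 0 and 0.205 TPM and exMidgut 0, 0, 4.09 and 0.142 TPM. The emMidgut library with 5.96 TPM also held 39.7 TPM of the pancreas progenitor list and 43.1 TPM of the enteroendocrine list (at most 4.66 and 0.653 TPM in the other emMidgut libraries), of which Neurog3, the endocrine progenitor factor, made up 32.6 TPM. Their part in the Pdx1 value was not tested.

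Onecut2, a cut-homeobox factor on chromosome 18 that acts with Onecut1 in liver, pancreas and duodenum, also had its highest group means in the small intestine at E13.5. It was 18.4, 36.7 and 15.3 TPM in emSI and 39.6, 50.3 and 31.0 TPM in exSI, all above every other library of the series. At E9.5 emMidgut held 0.732, 5.75, 3.22 and 5.95 TPM and exMidgut 1.36, 5.94, 11.5 and 8.41 TPM. The emHindgut libraries lay at 0.330 to 0.563 TPM and the exHindgut libraries at 0.360 to 1.25 TPM, below the midgut libraries of their origin. Over the 8 gut groups the mean log2(TPM + 1) of Pdx1 and Onecut2 correlated at r = 0.92 (Pearson, 8 group means from shared libraries, as a description).

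**Figure D1:**
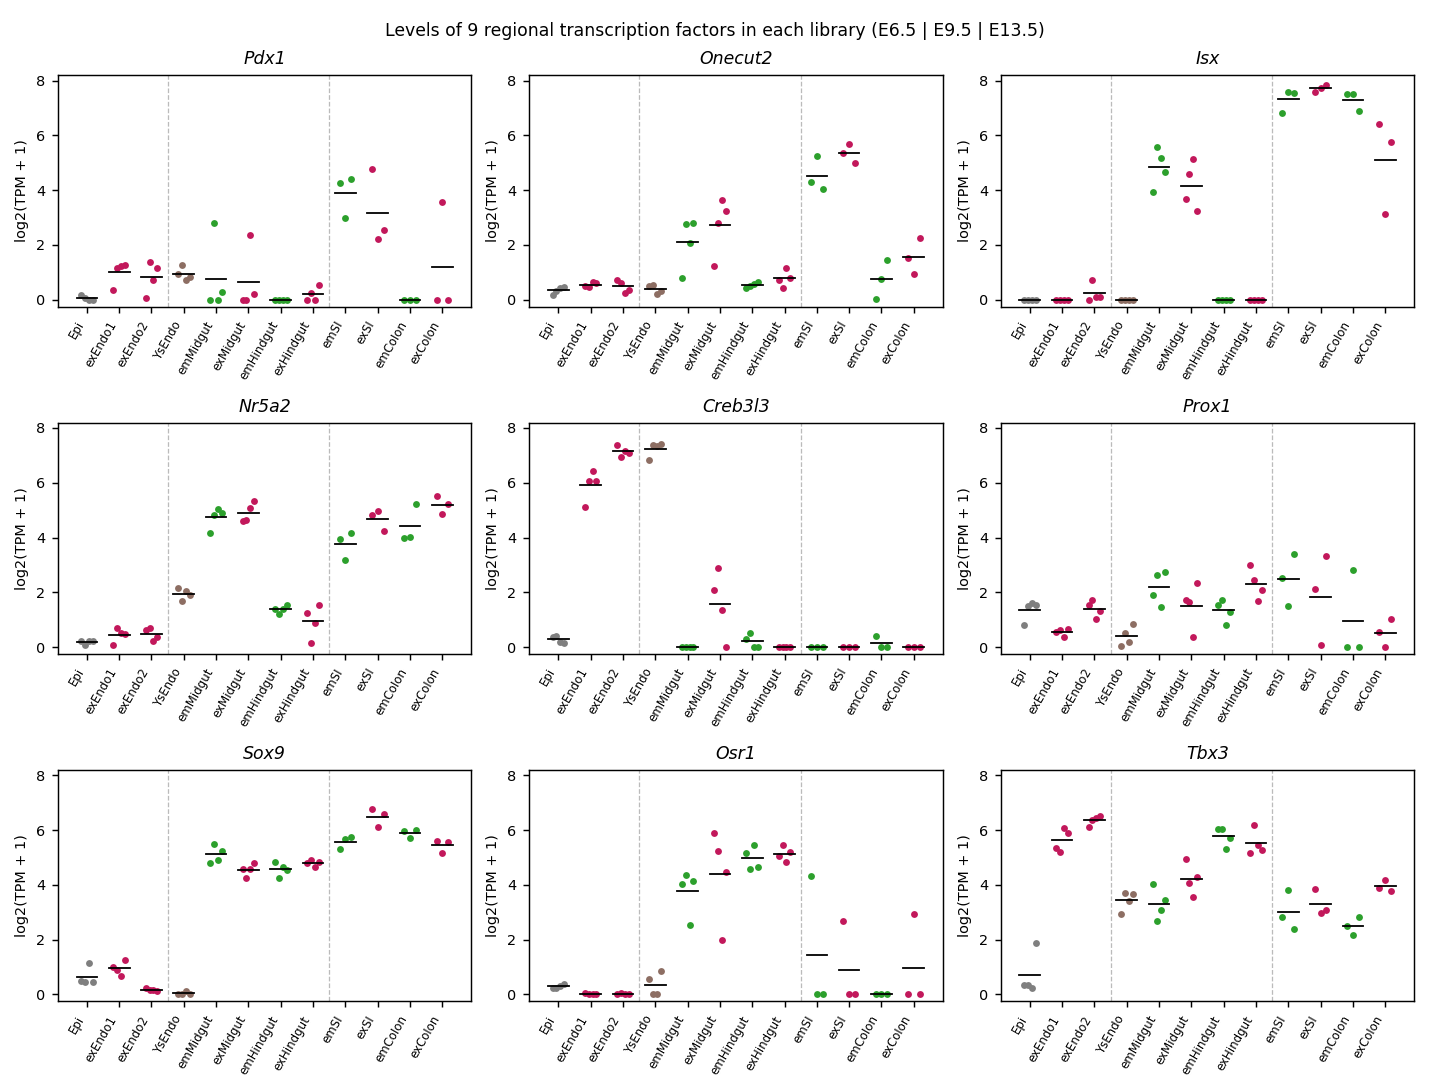
Level of each transcription factor in each library, as log2(TPM + 1), over the 12 groups from E6.5 (left) through E9.5 to E13.5 (right), with 1 point per library and a black bar at the group mean (green, embryonic gut; pink, extraembryonic; brown, yolk sac; grey, epiblast). Isx and Nr5a2 are high in midgut and low in hindgut at E9.5, Creb3l3 is high in exEndo1, exEndo2 and YsEndo, and Tbx3 is higher in the hindgut than in the midgut of the same origin at E9.5. For Osr1 the exMidgut libraries overlap with both hindgut groups.

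Isx (chr8:74873173-74893506, plus strand), the intestine-specific homeobox factor that represses genes of carotenoid and lipid uptake, had the highest mean TPM of the 9 in each E13.5 group. At E9.5 it was 14.3, 46.7, 35.1 and 24.7 TPM in emMidgut and 11.7, 23.3, 34.7 and 8.49 TPM in exMidgut. It was listed at 0 in all 8 hindgut libraries of both origins. By E13.5 the colon, too, held Isx.
The emSI libraries held 112, 193 and 186 TPM, the exSI libraries 191, 213 and 231 TPM and the emColon libraries 183, 181 and 118 TPM. The exColon libraries were lower, at 85.1, 7.71 and 52.96 TPM, and did not overlap with any of these 3 groups. The exColon library with 7.71 TPM is the one that holds Pdx1 (10.9 TPM) and Osr1 (6.68 TPM), both listed at 0 in the other exColon libraries. In Epi, exEndo1 and YsEndo Isx was listed at 0 throughout, and in exEndo2 it was at most 0.653 TPM.

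Nr5a2 (chr1:136842571-136960448, minus strand), the nuclear receptor LRH-1 of bile acid metabolism and crypt renewal, marked the midgut of both origins at E9.5. It was 17.0, 27.1, 31.8 and 29.0 TPM in emMidgut and 23.2, 23.9, 33.1 and 38.9 TPM in exMidgut. The hindgut held 1.28 to 1.92 TPM (emHindgut) and 0.113 to 1.87 TPM (exHindgut), with no overlap between regions. At E13.5 its level was no longer lower distally.
It was 14.6, 8.08 and 17.0 TPM in emSI, 27.4, 30.4 and 17.7 TPM in exSI, 15.0, 15.1 and 36.6 TPM in emColon and 44.4, 27.7 and 36.0 TPM in exColon. The ranges of exSI, emColon and exColon overlap one another, and that of emSI lies below exSI. Yolk sac endoderm held less than the midgut and more than the hindgut (2.21 to 3.43 TPM), and the E6.5 tissues held at most 0.634 TPM.

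Creb3l3 (chr10:81084324-81098874, minus strand), a membrane-bound factor of lipid metabolism in liver and small intestine, was a gene of the extraembryonic endoderm in these libraries. It was 33.3, 66.0, 85.6 and 65.1 TPM in exEndo1, 166, 121, 144 and 134 TPM in exEndo2 and 112, 166, 162 and 169 TPM in YsEndo. The ranges of exEndo2 and YsEndo overlap, and both lie above exEndo1. In Epi it was at most 0.337 TPM.
The gut groups held little of it. It was listed at 0 in all libraries of emMidgut, exHindgut, emSI, exSI and exColon, and reached at most 0.427 TPM in emHindgut and 0.310 TPM in emColon. The exMidgut group was the exception, with 3.28, 6.42, 1.56 and 0 TPM. The yolk sac endoderm list was also higher there, at 7011 to 16800 TPM in exMidgut and 1430 to 3137 TPM in emMidgut, with Afp at 4641 to 8162 and 662 to 978 TPM. Its part in the Creb3l3 value was not tested.

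Sox9 (chr11:112782224-112787760, plus strand), an HMG-box factor of endodermal progenitors and crypts, was at 17.8 TPM or more in every gut library and at 1.37 TPM or less elsewhere. At E9.5 it was 27.1, 43.7, 29.2 and 36.3 TPM in emMidgut, 22.6, 17.8, 22.7 and 27.1 TPM in exMidgut, 27.4, 17.9, 23.9 and 22.1 TPM in emHindgut and 26.8, 28.9, 24.1 and 27.2 TPM in exHindgut. These 4 groups lie within 17.8 to 43.7 TPM. At E13.5 it was 38.4, 50.02 and 53.3 TPM in emSI, 107, 68.5 and 94.6 TPM in exSI, 62.2, 51.8 and 62.4 TPM in emColon and 47.8, 35.2 and 46.6 TPM in exColon. The ranges of emSI and emMidgut overlap. The exSI libraries lie above all others of the series, and the remaining E13.5 groups overlap with at least 1 neighbour in the order of levels. In YsEndo it was at most 0.0855 TPM and in the E6.5 groups at most 1.37 TPM.

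Prox1 (chr1:190118035-190170714, minus strand), a homeobox factor of hepatic and pancreatic progenitors, lymphatic vessels and enteroendocrine cells, had no group mean above 5.42 TPM, the lowest peak of the 9. In order of mean level its 12 groups formed a continuum in which every group overlapped with the next. At E13.5 it was 4.80, 1.81 and 9.63 TPM in emSI, 3.37, 0.0487 and 9.001 TPM in exSI, 0, 6.05 and 0 TPM in emColon and 0.454, 0 and 1.04 TPM in exColon. The spread between libraries of a group was as large as the levels. Enteroendocrine markers held 16.1, 220 and 421 TPM in emSI and at most 1.37 TPM in exSI, and their part in the Prox1 values was not tested.

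Osr1 (chr12:9570116-9581500, plus strand), a zinc finger factor best known from intermediate mesoderm and also used in foregut and hindgut endoderm, was an E9.5 gene. It was 34.5, 23.0, 42.8 and 24.4 TPM in emHindgut, 32.2, 43.0, 27.2 and 36.1 TPM in exHindgut and 15.4, 19.3, 4.77 and 16.7 TPM in emMidgut. The exMidgut libraries spanned the widest range, at 58.7, 36.3, 2.95 and 21.3 TPM, and overlap with all 3. At E13.5 it was listed at 0 in 9 of 12 libraries. The 3 libraries with Osr1 were 1 of emSI (19.0 TPM), 1 of exSI (5.36 TPM) and 1 of exColon (6.68 TPM). The emSI library with 19.0 TPM is replicate 1, which holds 536 TPM of the mesenchyme list, including Col3a1 at 203 TPM, and the share of mesenchyme RNA in this value was not tested.

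Tbx3 (chr5:119670669-119684724, plus strand), a T-box repressor used in the liver bud, limb and early embryo, was high in extraembryonic endoderm at E6.5 and in the hindgut at E9.5. It was 39.6, 35.8, 66.2 and 57.8 TPM in exEndo1 and 68.3, 81.7, 85.2 and 90.1 TPM in exEndo2, against 0.281, 0.274, 0.161 and 2.69 TPM in Epi. At E9.5 it was 65.6, 65.3, 38.1 and 51.4 TPM in emHindgut and 35.3, 70.9, 43.4 and 37.8 TPM in exHindgut. The midgut held less, with 15.4, 5.41, 7.54 and 9.93 TPM in emMidgut and 29.7, 15.7, 10.9 and 18.4 TPM in exMidgut, and neither origin overlapped between regions. At E13.5 it was 4.27 to 12.96 TPM in emSI, 6.76 to 13.3 TPM in exSI, 3.46 to 6.15 TPM in emColon and 12.7 to 17.1 TPM in exColon. The exColon range lies above that of emColon, and those of emSI and exSI overlap.

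In the order of group means, neighbouring groups whose ranges did not overlap numbered 0 of 11 for Pdx1 and Prox1, 1 of 11 for Onecut2 and Osr1, 2 of 11 for Nr5a2, Creb3l3 and Isx and 4 of 11 for Sox9 and Tbx3. For Onecut2 the gap lay between the E13.5 small intestine and all else, and for Nr5a2 the gaps lay on either side of YsEndo. For Isx the upper gap lay between emColon and exColon. Groups that are not neighbours in this order can still overlap, as do exEndo2 and exHindgut for Tbx3.

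The levels were compared between groups as log2(TPM + 1) with limma across all protein-coding genes above the filter on low TPM. A gene was called at a Benjamini-Hochberg adjusted p under 0.05 with a log2 difference above 1 in either direction. All tests are two-sided, and the scale with its pseudocount of 1 TPM makes the changes of weakly detected genes look smaller than they are. In bulk libraries, fewer cells of a type and less RNA per cell cannot be told apart. Several comparisons share groups (the regional, origin and stage comparisons use the same gut libraries), so that their results are set side by side and are not independent of one another.

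The first comparison asks whether extraembryonic cells in the gut carry the regional pattern of their embryonic neighbours. At E9.5, 7 of the 9 factors passed the filter (Pdx1 and Creb3l3 did not), and in each origin the same 4 were called: Onecut2, Isx and Nr5a2 lower in the hindgut, and Tbx3 higher. Among all 13460 genes tested, 7.91% were called lower and 4.91% higher in emHindgut than in emMidgut, and 7.28% and 4.96% in exHindgut than in exMidgut. Nr5a2 was lower in the hindgut by a log2 difference of -3.35 ± 0.34 (SE, adjusted p = 3.79e-07) in embryonic cells and of -3.96 ± 0.34 (adjusted p = 4.06e-08) in extraembryonic cells. Isx was called in both (adjusted p = 4.55e-08 and 3.71e-07), and no fold is given because the hindgut is listed at 0, which also means that it passed the filter only through the midgut.

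Onecut2 differed by -1.57 ± 0.50 (adjusted p = 0.0278) in embryonic and by -1.94 ± 0.50 (adjusted p = 0.00766) in extraembryonic cells. Like Isx, it passed the filter only through the midgut, with 0 emHindgut libraries and 1 exHindgut library above 1 TPM. The embryonic call was lost when any 1 of 7 of the 8 libraries was left out (adjusted p = 0.0507 to 0.0904). Tbx3 was higher in the hindgut by 2.46 ± 0.32 (adjusted p = 7.03e-06) in embryonic cells and by 1.31 ± 0.32 (adjusted p = 0.00474) in extraembryonic cells. Without emMidgut replicates 1 and 3, the embryonic comparison again called 4 factors. Osr1 differed by 1.20 ± 0.56 (adjusted p = 0.140) and 0.74 ± 0.56 (adjusted p = 0.392), Sox9 by -0.55 ± 0.21 and 0.25 ± 0.21, and Prox1 by -0.84 ± 0.45 and 0.78 ± 0.45, none of which passed the threshold. In a fit of emHindgut and emMidgut alone, Osr1 was called higher in emHindgut (adjusted p = 0.023).

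**Figure D2:**
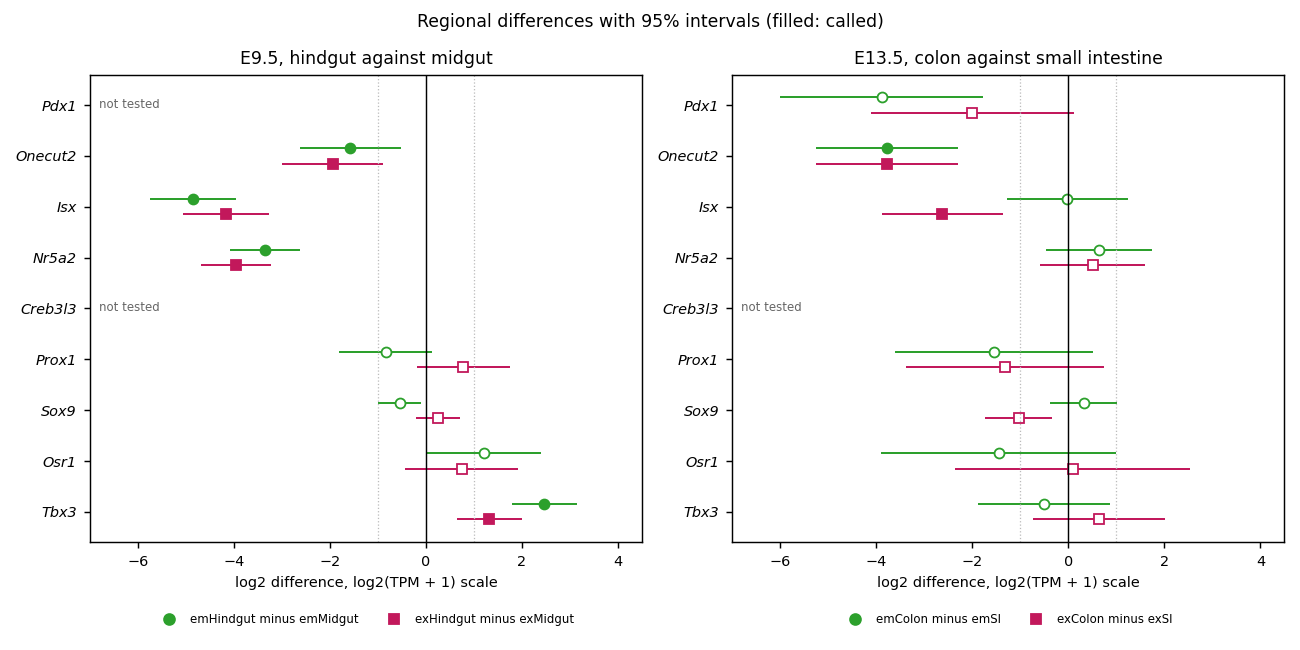
Log2 difference between regions for each factor on the log2(TPM + 1) scale with its 95% interval, hindgut minus midgut at E9.5 (left) and colon minus small intestine at E13.5 (right), in embryonic (green circles) and extraembryonic cells (pink squares), with filled symbols for called differences and dotted lines at 1 and -1. Onecut2, Isx, Nr5a2 and Tbx3 are filled in both origins at E9.5, whereas at E13.5 Onecut2 is filled in both and Isx in extraembryonic cells; differences against groups listed at 0 depend on the pseudocount.

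The difference between the regional effects of both origins was tested as an interaction. With limma, 0 of the 7 factors passed (0.0966% of all genes did), and 3 of 7 (1049 of all 13460 genes) had an unadjusted p under 0.05. These were Prox1 (1.62, 95% interval 0.29 to 2.95, adjusted p = 0.507), Tbx3 (-1.15, -2.08 to -0.22, adjusted p = 0.490) and Sox9 (0.80, 0.19 to 1.41, adjusted p = 0.461). For Nr5a2 the interval of the interaction was -1.61 to 0.39, which holds regional effects that differ by more than 1 log2 unit. With Isx at 0 in every hindgut library, its interaction is the midgut difference between origins with the sign turned and adds nothing to it.

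Origin was also compared within each region at E9.5. In the midgut, 0 of 7 factors were called between exMidgut and emMidgut (1.66% of all genes were called higher in exMidgut and 2.2% lower), with 2 of 7 (2557 of all 13460 genes) at an unadjusted p under 0.05. These were Tbx3, with a log2 difference of 0.90 ± 0.32 (adjusted p = 0.106), and Sox9, at -0.56 ± 0.21 (adjusted p = 0.123). Nr5a2 differed by 0.18 (95% interval -0.53 to 0.89), Isx by -0.67 (-1.55 to 0.20) and Onecut2 by 0.62 (-0.41 to 1.66). Single libraries decide some of these values: without emMidgut replicate 1 Tbx3 was called (1.14, adjusted p = 0.047), and without exMidgut replicate 3, the library with 2.95 TPM, Osr1 was called (1.44, adjusted p = 0.035).

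In the hindgut, 0 of 7 factors were called between exHindgut and emHindgut (1.32% of all genes higher and 1.32% lower). An unadjusted p under 0.05 was found for 1 of 7 (2156 of all 13460 genes), Prox1 (0.95, 95% interval 0.01 to 1.89, adjusted p = 0.304). The intervals were -1.14 to 0.28 for Nr5a2, -0.20 to 0.66 for Sox9 and -0.91 to 0.40 for Tbx3, so that those of Sox9 and Tbx3 lie within 1 log2 unit of 0. Isx was listed at 0 in both groups.

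**Figure D3:**
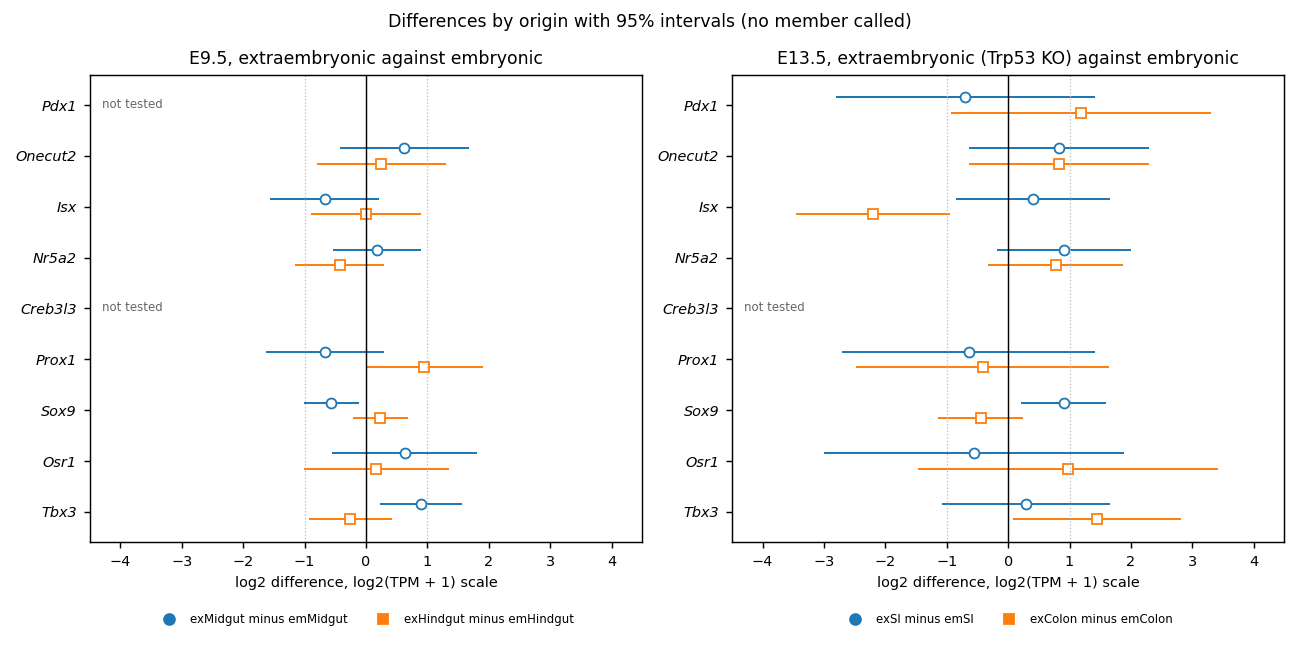
Log2 difference, extraembryonic minus embryonic, for each factor on the log2(TPM + 1) scale with its 95% interval, in midgut and hindgut at E9.5 (left) and in small intestine and colon at E13.5 (right; the extraembryonic cells there are Trp53 KO). No factor was called (all symbols are open); at E13.5 the intervals are wider, and Isx in the colon lies farthest below 0 (-2.21).

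At E13.5, 8 of the 9 factors passed the filter (Creb3l3 did not). Onecut2 was the only factor called between colon and small intestine in embryonic cells (1 of 8, lower in emColon; 0.449% of all 12470 genes were called lower and 0.281% higher). In extraembryonic cells, Onecut2 and Isx were called lower in exColon (2 of 8; 0.489% of genes lower and 0.337% higher). The difference of Onecut2 was -3.77 ± 0.68 (adjusted p = 0.0152) between emColon and emSI and -3.77 ± 0.68 (adjusted p = 0.0158) between exColon and exSI, and the ranges of the organs did not overlap in either origin. Isx differed by -2.62 ± 0.58 between exColon and exSI (adjusted p = 0.0476) and by -0.02 ± 0.58 between emColon and emSI.

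These calls depend on few libraries and on settings. With a pseudocount of 0.1 TPM both extraembryonic calls were lost (adjusted p = 0.0929 for Onecut2 and 0.0854 for Isx), that of Isx also without the filter (0.245), with the replicate block (0.0521) and in a fit of the compared groups (0.106), and the embryonic call of Onecut2 in a fit of the compared groups (0.0632). The call of Onecut2 was lost in embryonic cells without emSI replicate 1 or 2 (adjusted p = 0.0671 and 0.122) or without both (0.658), and in extraembryonic cells without exSI replicate 1 or 2 or exColon replicate 2 (adjusted p = 0.067 to 0.097). The call of Isx was lost without any 1 of 5 of the 6 libraries (adjusted p = 0.0526 to 0.175), and without exColon replicate 2 the difference was -1.64. Pdx1 differed by -3.88 ± 0.99 (adjusted p = 0.102) in embryonic and by -1.99 ± 0.99 (adjusted p = 0.493) in extraembryonic cells, and was not called. The pancreas progenitor list, with 146 to 299 TPM in emSI, 51.1 to 210 TPM in exSI and at most 3.83 TPM in the colon groups, moved with Pdx1 and Onecut2. Of its 7 genes, 7 in emSI and 4 in exSI had a mean above 1 TPM, the exocrine marker Cpa1 held 40.5 to 198 TPM in each small intestine library and was listed at 0 in the colon, Neurog3 was listed at 0 in exSI, and the part of pancreatic RNA in these differences was not tested.

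The interaction of origin and organ was called for 0 of 8 factors (0.016% of all genes), with 2 of 8 (1032 of all 12470 genes) at an unadjusted p under 0.05, Isx (-2.61, 95% interval -4.36 to -0.86, adjusted p = 0.438) and Sox9 (-1.35, -2.31 to -0.39, adjusted p = 0.454). Between exSI and emSI 0 of 8 were called (0.329% of genes higher, 0.184% lower), and 1 of 8 (904 of all 12470 genes) had an unadjusted p under 0.05. Sox9 was 0.91 ± 0.32 higher there (adjusted p = 0.457), and the interval for Onecut2 was -0.63 to 2.28. Without emSI replicates 1 and 2 again 0 were called, and the difference of Onecut2 was 1.31 in place of 0.82. Between exColon and emColon 0 of 8 were called (0.457% higher, 0.112% lower), and 2 of 8 (1647 of all 12470 genes) had an unadjusted p under 0.05. There Isx differed by -2.21 ± 0.58 (adjusted p = 0.116) with no overlap of the ranges, and without exColon replicate 1 it was called (-2.87, adjusted p = 0.032). Tbx3 differed by 1.45 ± 0.64 (adjusted p = 0.344). The median over all genes was itself shifted by 0.22 between exColon and emColon, by 0.24 in the interaction and by -0.15 between emColon and emSI, and no call of the 9 factors at E13.5 changed under median-ratio rescaling or quantile normalization.

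Levels at E13.5 were then set against E9.5, the small intestine against the midgut and the colon against the hindgut, with all 9 factors tested among 14470 genes. In extraembryonic cells the E9.5 groups are wild type and the E13.5 groups Trp53 KO, so that stage and genotype cannot be told apart there. Embryonic cells were sorted as GFP+ with low mCherry signal at E9.5 and as GFP+ at E13.5. At E13.5 they came from embryos with the knockout in the extraembryonic cells. In both origins the E9.5 libraries are pools of 4 embryos and the E13.5 libraries single embryos. Per the study's methods, the E9.5 hindgut was the most posterior part of the embryo, and the E13.5 intestine was cut into small intestine and colon. The positions compared may therefore differ. Stage can therefore not be told apart from pooling or position along the gut in either origin. In embryonic cells it cannot be told apart from the sort or from the knockout in the neighbouring extraembryonic cells. The medians over all genes lay below 0, at -0.33 for emSI, -0.47 for emColon, -0.31 for exSI and -0.20 for exColon, and the differences are given relative to these medians. Isx was called higher in all 4 comparisons. Relative to the median it rose by 2.81 from emMidgut to emSI (adjusted p = 0.0015) and by 3.86 from exMidgut to exSI (adjusted p = 2.1e-05), and in the colon it went from listed at 0 in every hindgut library to 7.71 TPM or more (adjusted p = 7.05e-11 in embryonic and 6.26e-08 in extraembryonic cells).

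From midgut to small intestine, 3 of 9 factors were called in embryonic cells (13.4% of all genes either way), all higher, and 6 of 9 in extraembryonic cells (15.3%), 4 higher and 2 lower. Onecut2 rose by 2.74 relative to the median in embryonic cells (adjusted p = 0.00302) and by 2.92 in extraembryonic cells (adjusted p = 0.0012), and Pdx1 by 3.45 (adjusted p = 0.00514) and 2.85 (adjusted p = 0.0178). In extraembryonic cells Sox9 also rose, by 2.25 (adjusted p = 1.35e-06), Osr1 fell by 3.20 (adjusted p = 0.00717), and Creb3l3 was called lower, listed at 0 in exSI (adjusted p = 0.00496). Sox9 was not called in embryonic cells (0.80 relative to the median, adjusted p = 0.180). Creb3l3 passed the filter only through the 3 exMidgut libraries where it is above 1 TPM, so that it had to differ. The pancreas progenitor list moved with Pdx1 and Onecut2, from 0.474 to 39.7 TPM in emMidgut to 146 to 299 TPM in emSI, and from 0.354 to 2.45 TPM in exMidgut to 51.1 to 210 TPM in exSI, and its part in their rise was not tested.

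Not all of these calls hold without single libraries. Without emMidgut replicates 1 and 3, only Isx remained called in embryonic cells (1 of 9), with adjusted p = 0.106 for Pdx1 and 0.08 for Onecut2. Without emSI replicates 1 and 2 the adjusted p of Onecut2 was 0.154. In embryonic cells Osr1 fell by 1.99 relative to the median and was not called (adjusted p = 0.080). Before the median is taken off, its difference was -2.32 ± 0.92. Without emSI replicate 1, the 1 emSI library with Osr1, that difference was -3.76 and was called (adjusted p = 0.00416). The call of Pdx1 in extraembryonic cells was lost without exMidgut replicate 1 or 2 or exSI replicate 1 (adjusted p = 0.0515 to 0.140), and that of Creb3l3 in a fit of exSI and exMidgut alone (adjusted p = 0.122).

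From hindgut to colon, 5 of 9 factors were called in embryonic cells (21.8% of all genes) and 4 of 9 in extraembryonic cells (11.8%). Nr5a2 rose by 3.50 relative to the median in embryonic cells (adjusted p = 2.77e-06) and by 4.44 in extraembryonic cells (adjusted p = 1.53e-08). The liver progenitor list moved with it, from a median of 21.0 to 564 TPM in embryonic and 131 to 715 TPM in extraembryonic cells, as did the yolk sac endoderm list, from 43.96 to 3833 TPM and from 302 to 5226 TPM, and their part in the rise was not tested. Tbx3 fell by 2.82 (adjusted p = 8.07e-07) and by 1.39 (adjusted p = 0.00776), and Osr1, listed at 0 in 5 of 6 colon libraries, was called lower in both (adjusted p = 0.000198 and 0.00224). Sox9 rose by 1.80 relative to the median in embryonic cells (adjusted p = 0.000128), and its rise of 0.86 in extraembryonic cells did not pass (adjusted p = 0.0608). Leaving out any 1 library kept these counts at 5 and 4.

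**Figure D4:**
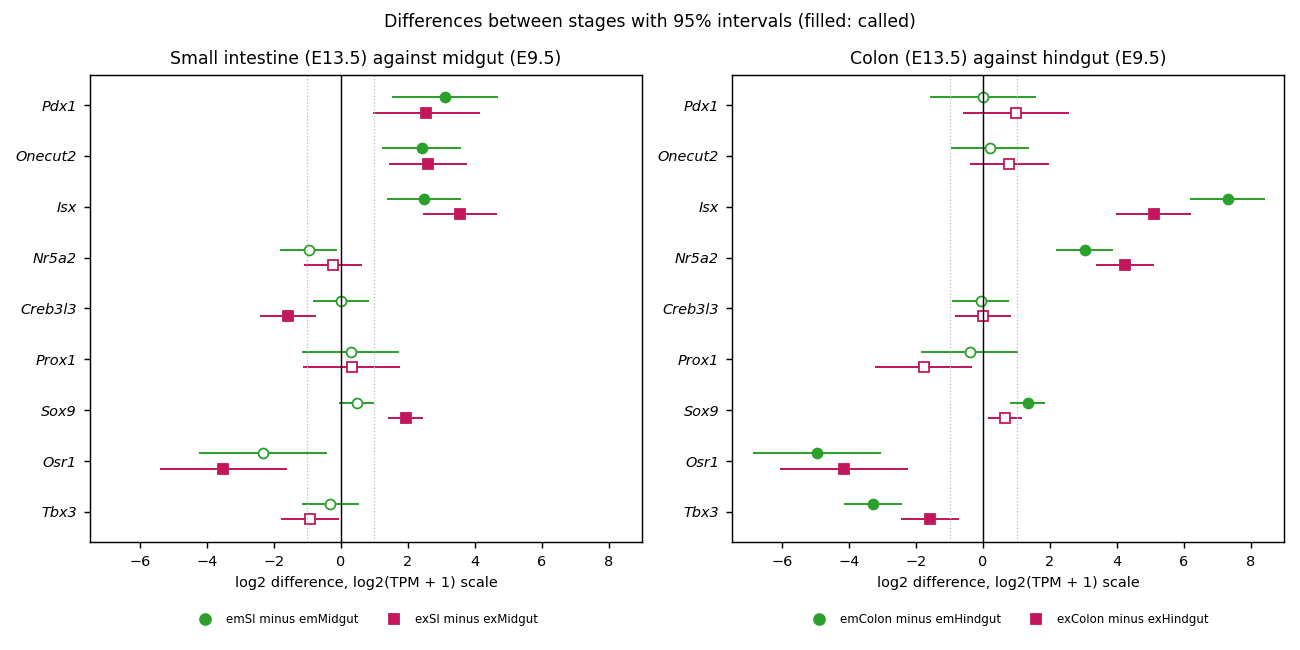
Log2 difference between stages for each factor on the log2(TPM + 1) scale with its 95% interval, small intestine at E13.5 minus midgut at E9.5 (left) and colon at E13.5 minus hindgut at E9.5 (right), in embryonic (green circles) and extraembryonic cells (pink squares; Trp53 KO at E13.5), with filled symbols for called differences. Isx is filled and above 0 in all 4 comparisons, Nr5a2 rises and Osr1 and Tbx3 fall in the colon of both origins, and differences against groups listed at 0 depend on the pseudocount.

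Extraembryonic gut was also compared with the yolk sac endoderm of the same stage, which shares its origin. Taking exMidgut and exHindgut together, 7 of 8 factors were called (44.7% of all genes), Creb3l3 lower and Onecut2, Osr1, Isx, Sox9, Tbx3 and Prox1 higher in the gut. Isx is listed at 0 in YsEndo and exHindgut alike, so that its call and its pass of the filter rest on exMidgut alone. Onecut2, Osr1, Sox9 and Prox1 were above 1 TPM in 0 YsEndo libraries, and passed the filter only through the gut. Creb3l3 passed only with the YsEndo libraries, as exMidgut held it above 1 TPM in 3 libraries. The count of 7 of 8 can therefore not be read against the share of all genes. The median over all genes was shifted by 0.59. Creb3l3 was called lower (adjusted p = 9.34e-10), with no fold given since it is listed at 0 in all exHindgut libraries. Relative to the median Sox9 rose by 4.03 (adjusted p = 2.37e-11) and Osr1 by 3.82 (adjusted p = 1.6e-06). Under quantile normalization the calls of Onecut2, Prox1 and Tbx3 were lost (adjusted p = 0.418, 0.234 and 0.0184 with a difference of 0.78 for Tbx3), and the count was 4, while under median-ratio rescaling that of Tbx3 was lost (0.90). Nr5a2 was not called (0.98 ± 0.28, adjusted p = 0.00591), though it was in 5 of 12 fits with 1 library left out, namely YsEndo replicate 1 or 3, exMidgut replicate 1 or 2 or exHindgut replicate 2 (1.02 to 1.12). Its exMidgut libraries lie above and its exHindgut libraries below those of YsEndo.

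At E6.5, 4 of the 9 factors passed the filter (Pdx1, Creb3l3, Tbx3 and Prox1). Between exEndo1 and Epi 2 of 4 were called (33.1% of all genes), Creb3l3 with a log2 difference of 5.64 ± 0.23 (adjusted p = 4.07e-11) and Tbx3 with 4.92 ± 0.31 (adjusted p = 5.7e-09), both higher in exEndo1. Both passed the filter only through exEndo1 and exEndo2, with 0 (Creb3l3) and 1 (Tbx3) Epi libraries above 1 TPM. Pdx1 (0.95, adjusted p = 0.00622) and Prox1 (-0.81, adjusted p = 0.00309) stayed under the threshold on size. With a pseudocount of 0.1 TPM both were called (2.91 and -1.55, adjusted p = 0.00224 and 0.0023), and Pdx1 also without exEndo1 replicate 1 (1.17). The median over all genes was 0.11. Between exEndo1 and exEndo2, Creb3l3 was the 1 factor of 4 called (6.31% of all genes), at -1.23 ± 0.23 (adjusted p = 0.00204), and without exEndo1 replicate 1 its difference was -0.96, inside the threshold on size. Tbx3 differed by -0.73 ± 0.31 there (adjusted p = 0.148). The exEndo1 and exEndo2 libraries were not paired in this fit, though same-numbered ones deviated together, as given below.

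The wider set of 23 other gut transcription factors gives the regional frame. At E9.5, 21 were tested, of which 11 were called lower and 6 higher in emHindgut than in emMidgut (median log2 difference -1.32, against -0.02 over all genes). In exHindgut against exMidgut 11 were lower and 3 higher (median -1.10, against 0.00). Over all genes, 7.91% were lower and 4.91% higher in emHindgut, and 7.28% and 4.96% in exHindgut. Factors near 0 in the hindgut, such as Onecut1 and Gata4 below, passed the filter only through the midgut and could only come out lower. The counts of the list can therefore not be read against these shares. Onecut1, the partner of Onecut2 in liver and pancreas, was 12.1 TPM in emMidgut and 18.7 TPM in exMidgut (group means) and listed at 0 in all hindgut libraries, and was called lower in the hindgut of both origins. Gata4, a zinc finger factor of foregut and proximal intestine, was 13.8 and 23.5 TPM in the midgut groups, listed at 0 in emHindgut and 0.181 TPM on average in exHindgut, and was called in both. Hnf4a, a nuclear receptor of enterocytes and hepatocytes, was 15.3 ± 14.2 TPM (SD, n = 4) in exMidgut and 0.0291 TPM on average in exHindgut and was called lower. Hoxd13, which marks the posterior end, was 48.6 TPM in emHindgut and 4.71 TPM in emMidgut and was called higher in emHindgut.

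**Figure D5:**
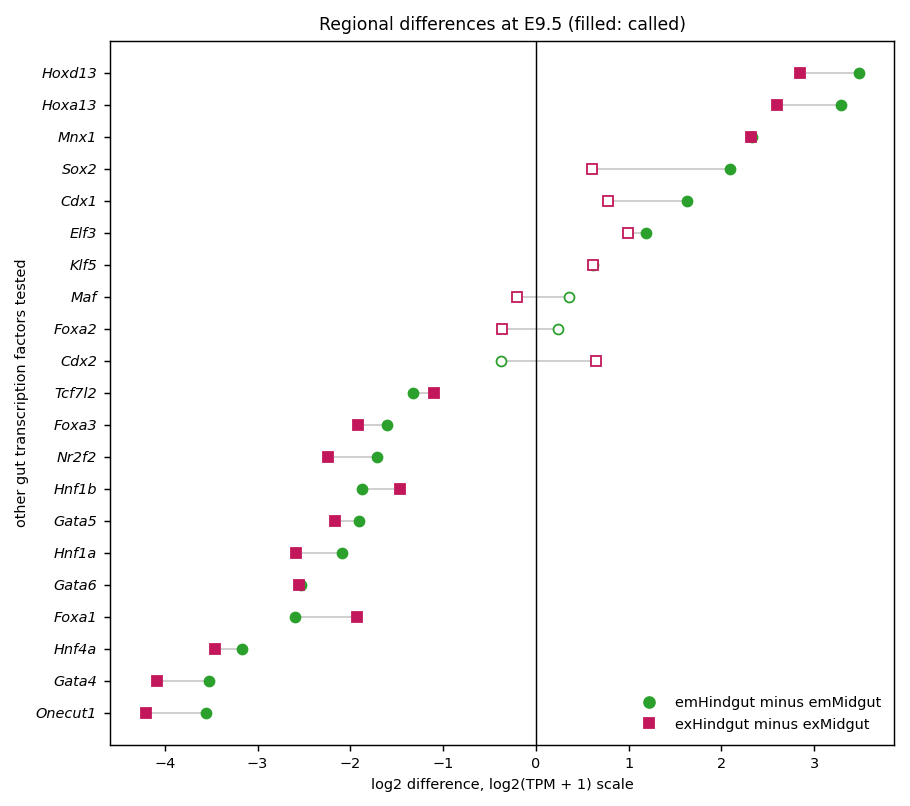
Log2 difference, hindgut minus midgut at E9.5, on the log2(TPM + 1) scale for the 21 other gut transcription factors tested, in embryonic (green circles) and extraembryonic cells (pink squares), with a grey line joining the values of a gene and filled symbols for called differences. In both origins 11 of the 21 are filled and below 0, with Onecut1 the lowest of them.

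At E13.5, 20 of these factors were tested, of which 0 were higher and 1 lower in emColon than in emSI and 0 higher and 3 lower in exColon than in exSI by limma (medians -0.06 and -0.40, against -0.15 and 0.08 over all genes). Over all genes, 0.281% were higher and 0.449% lower in emColon, and 0.337% and 0.489% in exColon. Factors near 0 in a colon group, such as Gata4 in emColon and Gata5 in exColon, could only come out lower there. These counts, too, can therefore not be read against the shares. Gata4 was 51.6 ± 19.7 TPM (SD, n = 3) in emSI and 60.5 ± 18.4 TPM in exSI, listed at 0 in emColon and 4.65 TPM on average in exColon, and was called lower in both. Gata5, a related factor, was 18.4 ± 5.73 TPM in exSI and 0.0484 TPM on average in exColon and was called lower. Elf3, an ETS factor of epithelial differentiation, was 309 ± 87.9 TPM in exSI and 66.4 ± 6.3 TPM in exColon and was called lower.

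Between origins, few of the other factors were called. In the midgut 0 were higher and 1 lower in extraembryonic cells (1.66% and 2.2% of all genes), and in the hindgut 0 and 0 (1.32% and 1.32%). In the small intestine the counts were 0 and 0 (0.329% and 0.184%), and in the colon 1 and 0 (0.457% and 0.112%). Neither interaction called any of them (medians over the list between -0.38 and 0.24, against -0.03 to 0.24 over all genes). The 2 genes, named after their values were seen, were Cdx2, the intestinal master regulator, with 349 ± 51.4 TPM (SD, n = 4) in emMidgut and 153 ± 24.6 TPM in exMidgut, and Onecut1, with 0.976 ± 0.707 TPM (SD, n = 3) in emColon and 20.4 ± 2.44 TPM in exColon. From midgut to small intestine 5 of 22 rose and 6 fell in embryonic cells (13.4% of all genes called) and 3 rose and 6 fell in extraembryonic cells (15.3%). From hindgut to colon 8 rose and 5 fell in embryonic cells (21.8%) and 7 rose and 4 fell in extraembryonic cells (11.8%). Against yolk sac, 11 of 20 were higher and 4 lower in extraembryonic gut (44.7%). In exEndo1 14 of 15 were higher and 1 lower than in Epi (33.1%), and 1 was higher and 2 lower than in exEndo2 (6.31%). Of the 23 factors, 8 had a mean above 1 TPM in Epi and 14 in exEndo1. Part of the list thus passed the filter only with the extraembryonic endoderm, and the count against Epi cannot be read against the share.

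Of 11 genes known to act downstream of the 9 factors, 8 were tested at E9.5. In emHindgut against emMidgut 1 was higher and 1 lower, and in exHindgut against exMidgut 1 was higher and 3 lower (medians -0.49 and -0.75, against -0.02 and 0.00 over all genes). Of all genes, 4.91% were called higher and 7.91% lower in emHindgut, and 4.96% and 7.28% in exHindgut. Genes near 0 in a hindgut group, such as Olfm4 in emHindgut, could only come out lower there, so that the counts cannot be read against these shares. Apoa4, an apolipoprotein gene activated by Creb3l3, was 62.2 ± 47.8 TPM (SD, n = 4) in exMidgut, with the yolk sac endoderm list also high there as given above, and 3.09 TPM on average in emMidgut, and was called lower in exHindgut than in exMidgut. Sct, the secretin gene, was 187 ± 97.8 TPM in emHindgut and 23.3 ± 24.4 TPM in emMidgut and was called higher in the hindgut of both origins. Olfm4, a crypt stem cell marker, was 2.96 TPM on average in emMidgut and 6.51 TPM in exMidgut, 0.0368 and 0.343 TPM in emHindgut and exHindgut, and was called lower in both.

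At E13.5, 0 of 7 of these downstream genes were called between organs or origins by limma (0.112% to 0.489% of all genes in either direction). In the E9.5 midgut 2 of 8, Apoa4 and the apolipoprotein gene Apoc2 (named after their values were seen), were higher in extraembryonic cells and 0 lower (1.66% and 2.2% of all genes). In the hindgut 0 were called (1.32% of all genes each way), and the interactions called 0 (0.0966% at E9.5 and 0.016% at E13.5). From midgut to small intestine 1 of 9 rose and 1 fell in embryonic (13.4% of all genes called) and 2 rose and 1 fell in extraembryonic cells (15.3%). From hindgut to colon 0 rose and 1 fell in embryonic cells (21.8%), and 1 rose and 1 fell in extraembryonic cells (11.8%). In extraembryonic gut 2 of 8 were higher and 4 lower than in yolk sac (44.7% of all genes called). In exEndo1 7 of 8 were higher and 0 lower than in Epi (33.1%), with 0 called against exEndo2 (6.31%). Of the 11 genes, 2 had a mean above 1 TPM in Epi and 8 in exEndo1. Part of the list thus passed the filter only with the extraembryonic endoderm, and the count against Epi cannot be read against the share.

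Genes whose group means (log2(TPM + 1)) followed those of a factor most closely were sought among 12438 genes with a group mean above 5 TPM, over the 12 groups, by Pearson correlation. All points come from the same libraries, and the values are descriptions. For Pdx1 they were Sphk1 (r = 0.945), Cps1 (0.937) and the pancreatic Cpa1 (0.936), for Onecut2 Cldn18 (0.973), Vipr1 (0.954) and Fmo5 (0.954), and for Isx 2010300C02Rik (0.974), Pamr1 (0.952) and Ncmap (0.948). The genes nearest to Nr5a2 were 3 members of the Serpina1 cluster, which share sequence and may share reads, namely Serpina1d (0.982), Serpina1c (0.975) and Serpina1e (0.973). Serpina1c, for example, was 123 TPM on average in emMidgut, 195 TPM in exMidgut, 1.89 TPM in emHindgut and 4.92 TPM in exHindgut.

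For Creb3l3 the nearest genes were Sytl3 (0.988), Slc23a1 (0.988) and Smlr1 (0.987), the last at 260 TPM on average in YsEndo and at most 0.618 TPM on average in any gut group. Osr1 was followed by Hoxc4 (0.988), Ripply3 (0.969) and Pknox2 (0.968), of which Hoxc4 was 19.0 TPM on average in emHindgut and 14.0 TPM in exHindgut. Tbx3 had Lpar1 (0.910), Lamc1 (0.904) and Cept1 (0.899), Sox9 had Grcc10 (0.989), Serf1 (0.978) and Tle5 (0.976), and Prox1 had Zc3h3 (0.872), Rtcb (0.850) and Mcat (0.848), the lowest values of the 9. Among the factors themselves, over the 8 gut groups, Osr1 and Tbx3 correlated at r = 0.82, Isx and Nr5a2 at 0.81, and Isx ran against both Osr1 (-0.87) and Tbx3 (-0.96).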

How the data were processed

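The 44 poly(A) libraries comprised 12 of E6.5, 20 of E9.5 and 12 of E13.5. Per the labels and the study's methods, adaptors and poly(A) were removed by the authors using cutadapt 4.1, alignment to mm10 used STAR 2.7.9a, and genes were quantified by StringTie 2.0.6 in each library. The deposited values are TPM, with FPKM and coverage (the signal per base), per gene. No read counts were used, so only the spread between libraries gives the error. FPKM and coverage served only to estimate the aligned bases, and coverage has no other use here.

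TPM was summed per gene identifier. Of 32287 identifiers, 32158 matched GENCODE vM21 (mm10), and 21454 protein-coding genes outside the Y chromosome and transgenes were used, if above 1 TPM in at least 4 libraries of a fit (3 at E13.5 and between stages). Log2(TPM + 1) was fitted with limma 3.58.1 (trend) in R 4.3.3, with all groups of a stage in a fit and Benjamini-Hochberg adjustment over all genes. The fits were tested on simulated data. Python 3.11.15, NumPy 2.4.6, pandas 2.3.3 and matplotlib 3.10.9 were also used.

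The 9 factors and the gene lists were chosen with earlier results of these data known. A gene of the list of other gut transcription factors is not reported here. Named besides them are the reporters and Trp53, for each factor the 3 genes with the most similar group means, and of each list the called counts and up to 3 called genes with the largest regional difference. The alternatives were a pseudocount of 0.1 TPM, no filter, median-ratio rescaling, quantile normalization, a replicate block, only the compared groups, and each library left out. Added after seeing the data were fits without emMidgut replicates 1 and 3 and without emSI replicates 1 and 2. Nothing in the labels says whether same-numbered E13.5 libraries share an embryo. The p-values measure the spread between libraries, which may in part be technical.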

Additional observations from a re-analysis of the deposited data

Results flagged for a closer look

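In groups of 4 libraries, a library was singled out when its gap to the nearest other library, divided by the range of the group, exceeded 0.829 (Dixon's 95% value for 4). Of 64 groups that could be tested, 11 were singled out. The value is exceeded in about 1 in 20 groups of normally distributed values, which TPM near 0 are not. A group with all but 1 library at 0 exceeds it by construction, as for Osr1 in exEndo1 and exEndo2. The count of 11 can therefore not be read as an excess. At E9.5 these were Pdx1 in emMidgut replicate 2 (5.96 TPM, next 0.205), Pdx1 in exMidgut replicate 3 (4.09 TPM, next 0.142) and Creb3l3 in YsEndo replicate 1 (112 TPM, the others 162 or more). At E6.5 the low side held Pdx1 in exEndo1 replicate 1 (0.277 TPM) and Prox1 in Epi replicate 1 (0.735 TPM). The high side held Tbx3 in Epi replicate 4 (2.69 TPM), Sox9 in Epi replicate 3 (1.20 TPM), Isx in exEndo2 replicate 2 (0.653 TPM), Sox9 in exEndo2 replicate 1 (0.169 TPM), Osr1 in exEndo2 replicate 2 (0.0396 TPM) and Osr1 in exEndo1 replicate 1 (0.0225 TPM). No factor passed the test of an interaction between origin and region or organ, and none had all libraries of both origins moving in opposite directions.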

How the results depend on the processing

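Of 1802 values of a factor under an alternative, 1698 kept their direction and their side of the threshold, 36 lost a call, 15 gained one and 53 changed sign, none of which was a called difference. The cause of these changes was not tested.

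The number of factors called between colon and small intestine at E13.5 in extraembryonic cells, 2 with all settings as reported, was 0 with a pseudocount of 0.1 TPM, 1 without the filter, 1 in a fit of the compared groups and 0 to 2 with 1 library left out. In embryonic cells it was 1, and 0 in a fit of the compared groups, 0 without emSI replicates 1 and 2, and 0 to 1 with 1 library left out. From emMidgut to emSI the count was 3, and 1 without emMidgut replicates 1 and 3. Against yolk sac it was 7, and 4 under quantile normalization. Between exEndo1 and Epi it was 2, and 4 with a pseudocount of 0.1 TPM. Between exEndo1 and exEndo2 it was 1, and 2 with a pseudocount of 0.1 TPM and 0 to 1 with 1 library left out. The count of 0 between exMidgut and emMidgut, and between exColon and emColon, ran from 0 to 1 with 1 library left out.

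Replicate numbers were not taken as pairs, since at no stage did every same-numbered pair correlate above 0.1, and the labels do not say whether E13.5 libraries share an embryo. Deviations from the group means correlated at -0.02 to 0.07 between same-numbered E9.5 libraries (24 pairs), at -0.02 to 0.06 at E13.5 (18 pairs) and at -0.16 to 0.38 at E6.5 (12 pairs, 6 of them above 0.1). Between exEndo1 and exEndo2 each same-numbered pair was above 0.1 (0.248, 0.146, 0.380 and 0.237), and other pairs reached at most 0.112. That comparison was nevertheless fitted without pairs, so that its p-values leave out any shared embryo. Between emSI and exSI each library correlated best with its own number (0.049 to 0.064). With the replicate block, the count between exColon and exSI was 1 in place of 2, and no other count moved.

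Uncalled differences changed sign as follows. Under quantile normalization, the E13.5 interaction was -0.62 for Onecut2 and -0.15 for Prox1, emColon minus emSI was 0.026 for Isx, emSI minus emMidgut 0.21 for Tbx3, emColon minus emHindgut 0.41 for Creb3l3 and 0.30 for Prox1, exSI minus exMidgut 0.033 for Nr5a2, and exEndo1 minus exEndo2 -0.019 for Pdx1. Under median-ratio rescaling Isx was 0.079 (emColon minus emSI) and the interaction of Onecut2 -0.13. With a pseudocount of 0.1 TPM Prox1 was 0.014 (exColon minus emColon) and -0.030 (exSI minus exMidgut). Without emMidgut replicates 1 and 3, the E9.5 interaction was 0.30 for Onecut2 and 0.022 for Osr1, exMidgut minus emMidgut -0.048 for Onecut2, and emSI minus emMidgut -0.21 for Prox1. Without emSI replicates 1 and 2, emColon minus emSI was 0.10 for Tbx3, and the E13.5 interaction -0.48 for Onecut2 and 0.27 for Nr5a2.

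With 1 library left out in turn, the E9.5 interaction ran from -0.87 to 0.067 for Onecut2 and from -1.26 to 0.042 for Osr1, exMidgut minus emMidgut from -0.0067 to 0.28 for Nr5a2, and exHindgut minus exMidgut from -0.063 to 1.24 for Osr1. The E13.5 interaction ran from -0.36 to 0.35 for Onecut2, from -0.36 to 0.28 for Nr5a2 and from -0.66 to 1.16 for Prox1. Isx ran from -0.26 to 0.19 (emColon minus emSI), Osr1 from -0.35 to 0.58 (exColon minus exSI), Tbx3 from -0.013 to 0.69 and Prox1 from -1.38 to 0.25 (exSI minus emSI), and Prox1 from -0.89 to 0.52 (exColon minus emColon). Between stages, Prox1 ran from -0.17 to 0.79 (embryonic) and -0.42 to 1.21 (extraembryonic) for the small intestine and from -1.34 to 0.068 for emColon, Onecut2 from -0.13 to 0.56 and Creb3l3 from -0.20 to 0.029 for emColon, and Pdx1 from -0.20 to 1.58 for exColon. Between exEndo1 and exEndo2 Pdx1 ran from -0.066 to 0.40.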
